A study of Mus musculus with 144 samples.

Results

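Liver RNA was compared between the rest phase and the active phase of control mice that ate whenever they chose. The comparison takes 6 of the 144 samples of the series, namely every control liver of the ad libitum schedule collected at zeitgeber time (ZT) 4 or ZT 16, 3 libraries at each time. ZT counts the hours from lights on, so ZT 4 lies in the light, when mice mostly rest, and ZT 16 in the dark, when they eat. The mice were male, of the C57BL/6J strain, labelled WT and given normal chow, and the columns of these controls in the count table carry the tag GFP. Their age, and whether a library came from 1 animal or several, are not stated in the labels, so p-values reflect only how much these libraries varied. A further 3 sets served for comparison. They were 18 control livers of the same schedule at ZT 1, 7, 10, 13, 19 and 22, the 6 ad libitum livers at ZT 4 and ZT 16 labelled REV-ERB a/b double knockout, a deletion that the series design places in hepatocytes of adult mice, and 6 control livers at ZT 4 and ZT 16 under reverse-phase feeding. All of these were male C57BL/6J mice on normal chow as well.

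The liver clock is a loop of transcription factors. ARNTL (BMAL1), with CLOCK or NPAS2, drives genes that carry an E-box, among them the Period and Cryptochrome genes, whose proteins return to repress that activity. The same activators drive Nr1d1 and Nr1d2, which encode the nuclear receptors REV-ERBα and REV-ERBβ, and these repress Arntl, Npas2 and Cry1. Feeding, body temperature and hormones also reach the liver, and each can affect metabolic and chaperone genes. Their part in the differences below was not tested.

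The 6 libraries held 6333084 to 7473396 counts. Values are given as normalised CPM, which are counts scaled to a common library size with edgeR's TMM factors, and differences as log2 fold changes of ZT 16 over ZT 4 with their standard error (SE). A gene was called when its adjusted p in edgeR's quasi-likelihood test was under 0.05. The SE is approximate, being the absolute log2 fold change divided by the square root of that test's F. The deviation of each library from the mean of the others of its time was set against log2 transcript length. For library 2 at ZT 16 the slope was -0.1672, 5.49 scaled median absolute deviations from the median of the 24 control libraries. It was 0.1389 (4.32 scaled deviations) for library 3 at ZT 16 and -0.1003 (3.34) for library 3 at ZT 4. The scaling makes such a deviation match a standard deviation (SD) for normally distributed values. Slopes within a time are not independent, since each library is measured against the others. Across genes the log2 fold change rose by 0.0144 per doubling of transcript length. Counts for several gene groups are therefore also given without single libraries. Hepatocyte markers summed to between 133393 and 173473 CPM in all 6 libraries, with Alb, Apoa1 and Ttr among the 13 markers measured.

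Of 12141 genes tested, 2848 were called (23.5%), 1403 higher at ZT 16 (11.6%) and 1445 lower (11.9%). Among them 302 were at least 2-fold higher and 360 at least 2-fold lower, and 66 and 60 passed 4-fold. The 3 libraries of one time all lay above the 3 of the other for 4068 genes (33.5%), and for 1286 of the genes called higher and 1343 of those called lower. ZT 16 was the highest of the 8 times for 777 of the genes called higher, ZT 13 for 334 and ZT 19 for 161. ZT 4 was the highest time for 719 of those called lower, ZT 7 for 312, ZT 10 for 191 and ZT 1 for 128. These counts follow in part from the calling itself, which used the same ZT 4 and ZT 16 libraries. Of the 9293 genes not called, 1315 were highest at ZT 16 and 1192 at ZT 4.

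The clock genes moved in both directions. Of 19 clock genes tested, 10 were called higher at ZT 16 and 4 lower. Among the 11 core repressors 7 were called higher and 2 lower, and leaving out 1 library left 5 to 7 called higher. Period and Cryptochrome genes and Ciart rose, while both REV-ERB genes and Npas2 fell. Nr1d1 (chr11:98629246-98636691, minus strand, mm9) gave 121, 79.0 and 139 CPM at ZT 4 and 5.32, 10.3 and 2.53 CPM at ZT 16. Every ZT 16 library lay far below every ZT 4 library, a log2 fold change of -4.24 ± 0.33 (SE; adjusted p = 5.5e-08) or 18.9-fold, and -4.84 without library 2 at ZT 16. Its level was already low at ZT 13 and was highest at ZT 7, at 158 ± 11 CPM (SD, n = 3). Nr1d2 moved the same way but less, from 73.5, 58.7 and 60 CPM to 31.3, 25.4 and 29.9 CPM (log2 fold change -1.15 ± 0.22, adjusted p = 0.000729).

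Among the repressors that feed back on ARNTL, Per2 (chr1:93312559-93355905, minus strand, mm9) was 7.87, 7.03 and 5.46 CPM at ZT 4 and 97.3, 130 and 93.8 CPM at ZT 16. All 3 ZT 16 values were above all ZT 4 values, and the log2 fold change was 3.98 ± 0.28 (adjusted p = 7.24e-09). Cry1 rose from 4.23, 5.96 and 3.82 CPM to 29.7, 25.8 and 36.4 CPM (2.72 ± 0.22 on the log2 scale, adjusted p = 4.76e-09). Per3 rose by 2.14 ± 0.24 on that scale (adjusted p = 1.06e-06), from 7.58, 6.88 and 4.51 CPM to 30, 29.3 and 23.9 CPM. For Per1 the rise was 2.57 ± 0.62 (adjusted p = 0.00584), and library 2 at ZT 16 was the highest, at 51.9 CPM beside 19.1 and 15.8 CPM. Without that library the rise was 1.84 on the log2 scale, and without library 3 at ZT 4 it was 3.37. The call was lost when the 6 libraries were fitted alone (adjusted p = 0.0782). Cry2 lay at the limit of the test, with a log2 fold change of 0.34 ± 0.13 (adjusted p = 0.0499), and lost the call without any 1 of 5 libraries, all but library 2 at ZT 16, with an adjusted p of up to 0.191 over its alternatives.

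Ciart, which encodes another repressor of the CLOCK and ARNTL complex, showed how low some of these transcripts were at ZT 4. It was counted 2, 2 and 3 times in the ZT 4 libraries and 40, 95 and 40 times at ZT 16, a ratio of 26.4 with a counting interval of 12.6 to 66.7. Npas2, a partner of ARNTL, went the other way, with 13, 23 and 19 counts at ZT 4 and 2, 1 and 0 at ZT 16, so ZT 4 exceeded ZT 16 by a ratio of 17.3 (95% counting interval 5.63 to 86.6).

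Arntl itself was not called. It measured 19.5, 20.5 and 20.1 CPM at ZT 4 and 21.6, 14.2 and 21.5 CPM at ZT 16, and the log2 fold change was -0.06 ± 0.18 (adjusted p = 0.85). The other times place these equal levels on opposite slopes of its course. Arntl was highest at ZT 1, at 46.1 ± 3.88 CPM (SD, n = 3), and lowest at ZT 10, at 1.51 ± 0.317 CPM. Clock, Rora, Nfil3 and Bhlhe41 were not called either, with log2 fold changes between 0.03 and 0.29. The PAR bZIP factors, which carry the clock's rhythm to metabolic genes, were mixed. Tef and Hlf rose by 0.87 ± 0.15 (adjusted p = 8.98e-05) and 0.91 ± 0.14 (adjusted p = 1.97e-05) on the log2 scale. Dbp fell, by 1.02 on the log2 scale (adjusted p = 0.0112), but its libraries overlapped, at 24.5, 12.7 and 22.8 CPM at ZT 4 and 6.94, 16.1 and 6.96 CPM at ZT 16. Its call was lost with the 6 libraries alone, with all 48 ad libitum libraries, and without library 1 or 3 of either time, with an adjusted p of up to 0.109. The strongest expression of Dbp, 169 ± 23.1 CPM (SD, n = 3), fell at ZT 7, between the times compared.

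**Figure D1:**
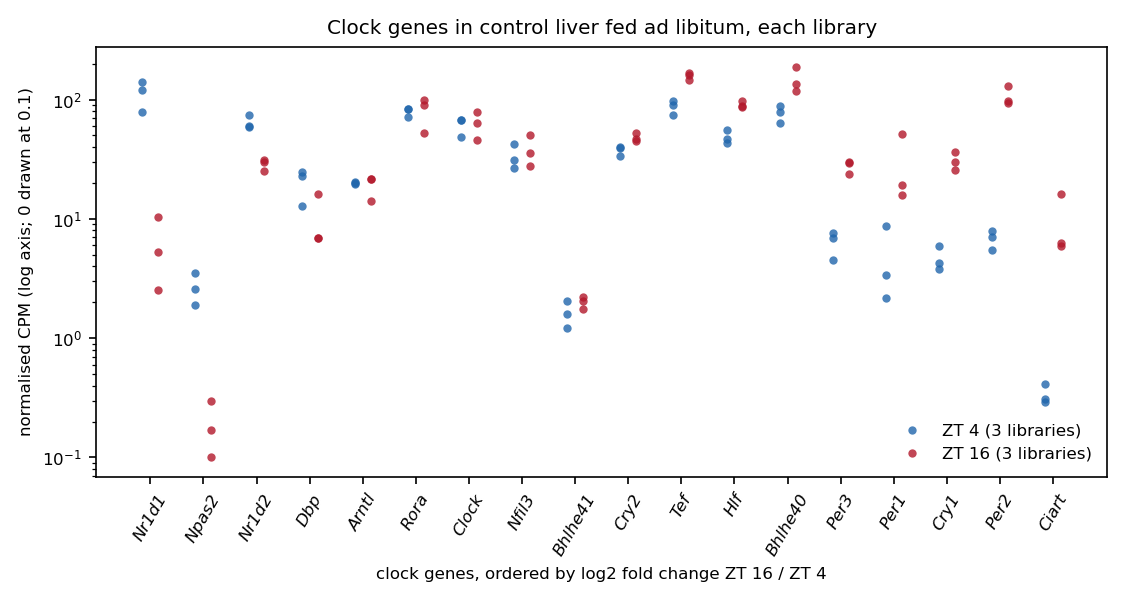
Normalised CPM (log axis) of 18 clock genes in each control library at ZT 4 (blue) and ZT 16 (red), genes ordered by log2 fold change; a value of 0 is drawn at 0.1. Nr1d1 and Npas2 at the left lie lower at ZT 16, Per2 and Ciart at the right lie higher, and the libraries of Arntl, Rora, Clock, Nfil3, Bhlhe41 and Dbp overlap.

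The E-box CACGTG, read on both strands, is the element through which ARNTL acts. It was looked for in the 250 bases before the start of each gene, in windows from RefSeq on GRCm38.p6, and occurred in 6.02% of all 32851 windows. It was present in 4 of the 9 core clock repressors that have a window, namely Per1, Cry1, Bhlhe41 and Ciart. Over all genes with a window, it was in 141 of 1090 called higher (12.9%) and 107 of 1105 called lower (9.68%), beside 10.1% of all genes tested. The Ciart, Per1 and Cry1 stretches are shown because these genes rose together at ZT 16, and capitals mark the E-box, which Ciart has 3 times.
Ciart (chr3:95882237-95882374, minus strand, GRCm38.p6): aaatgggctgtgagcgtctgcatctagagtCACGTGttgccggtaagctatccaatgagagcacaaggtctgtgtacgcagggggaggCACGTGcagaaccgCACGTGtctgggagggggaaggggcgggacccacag
Per1 (chr11:69098753-69098818, plus strand, GRCm38.p6): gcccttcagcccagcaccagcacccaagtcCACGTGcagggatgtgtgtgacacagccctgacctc
Cry1 (chr10:85185079-85185144, minus strand, GRCm38.p6): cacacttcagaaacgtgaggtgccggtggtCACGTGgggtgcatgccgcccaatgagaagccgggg
Bhlhe41, which also has an E-box in its window, was not called (log2 fold change 0.29 ± 0.36, adjusted p = 0.617).

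Heat shock genes were higher at ZT 16 as a group. Of 19 tested, 17 were called higher and none lower, and their median log2 fold change was 1.46 beside 0.00 over all genes. These genes encode chaperones that fold cytosolic proteins, and their helpers. Hspa8 (chr9:40609356-40613282, plus strand, mm9), the constitutive cytosolic HSP70, measured 191, 179 and 185 CPM at ZT 4 and 1276, 1448 and 1054 CPM at ZT 16. The ZT 4 libraries were tightly grouped and all far below those of ZT 16 (log2 fold change 2.77 ± 0.24, adjusted p = 1.03e-07). Hsph1, an exchange factor for HSP70, rose as far, from 24.6, 33.2 and 15.8 CPM to 151, 187 and 164 CPM (2.77 ± 0.27, adjusted p = 7.91e-07). Hsp90aa1, an HSP90, rose by 1.96 ± 0.25 (adjusted p = 1.31e-05) and Dnaja1, an HSP40 cochaperone, by 1.73 ± 0.13 (adjusted p = 1.41e-09). Hspa1a and Hspa1b, the inducible HSP70 genes, are near-identical copies, so reads may be split between them and their separate values, 2.42 ± 0.65 and 2.73 ± 0.57, are uncertain. Without library 2 at ZT 16 the call of Hspa1a was lost and Hspa1b rose by 2.0. The mitochondrial chaperonin pair Hspd1 and Hspe1 rose least among the 17, by 0.41 ± 0.10 (adjusted p = 0.00326) and 0.48 ± 0.12 (adjusted p = 0.00454). Hsf1, the master regulator of the response, was not called (0.30 ± 0.13, adjusted p = 0.1), nor was Cryab. Without library 2 at ZT 16, 16 heat shock genes were called higher, and without library 3 of either time 17.

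The heat shock element was searched as the units GAA, TTC and GAA, or TTC, GAA and TTC, each set apart by 2 bases, on both strands. It was in 0.466% of all windows and in 2 of the 14 heat shock genes that have a window, Hspd1 and Hspe1. These 2 genes start near each other in opposite directions, so their windows overlap and hold the same site. Capitals mark its 2 overlapping matches, and the stretch is shown because none of the other heat shock genes with a window had the motif in it.
Hspe1 (chr1:55088029-55088106, plus strand, GRCm38.p6): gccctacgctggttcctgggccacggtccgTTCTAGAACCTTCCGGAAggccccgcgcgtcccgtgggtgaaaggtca
Both genes were among the smaller rises of the list, as given above.

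The temperature-sensitive RNA-binding proteins Cirbp and Rbm3, both known to be induced by cooling, moved in opposite directions. Cirbp was 23.0, 17.7 and 30.3 CPM at ZT 4 and 7.83, 6.62 and 6.96 CPM at ZT 16, so the ZT 16 libraries were all lower (log2 fold change -1.73 ± 0.20, adjusted p = 4.43e-07). Rbm3 was 7.29, 6.88 and 10.2 CPM at ZT 4 and 16.4, 20.2 and 14.7 CPM at ZT 16, all higher (1.06 ± 0.21, adjusted p = 0.000641).

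Chaperones of the endoplasmic reticulum (ER) rose as well. Of 27 genes for ER chaperones and the ER stress response, 19 were called higher at ZT 16 and 1 lower, with a median log2 fold change of 0.85. Hspa5, the main ER HSP70 (BiP), measured 607, 793 and 390 CPM at ZT 4 and 2181, 2799 and 2266 CPM at ZT 16, without overlap (2.02 ± 0.25, adjusted p = 7.18e-06). Creld2 (chr15:88650076-88657111, plus strand, mm9), an ER-stress-inducible protein, rose furthest, from 20.6, 33.8 and 12.2 CPM to 174, 258 and 229 CPM (3.32 ± 0.41, adjusted p = 1.96e-05). Hyou1, a large ER chaperone, rose by 2.18 ± 0.31 (adjusted p = 5.1e-05), Syvn1, the ubiquitin ligase of ER-associated degradation, by 2.06 ± 0.26 (adjusted p = 1.62e-05), and Manf by 1.97 ± 0.29 (adjusted p = 8.77e-05). The stress sensors and factors moved little. Xbp1 (0.31 ± 0.19, adjusted p = 0.265), Atf4 (0.13 ± 0.13, adjusted p = 0.528) and Ern1 (-0.23 ± 0.28, adjusted p = 0.619) were not called, and Atf6 rose by 0.42 ± 0.15 (adjusted p = 0.0392), a call lost without library 1 or 3 at ZT 16 or library 3 at ZT 4. The 1 gene called lower was Asns, an asparagine synthetase driven by ATF4, at 4.37, 21.4 and 9.01 CPM at ZT 4 and 1.18, 3.22 and 2.06 CPM at ZT 16 (-2.43 ± 0.82, adjusted p = 0.0407). That call was lost without any 1 of 5 libraries, all but library 1 at ZT 4, with an adjusted p of up to 0.206 over its alternatives. In the count of genes called higher, leaving out library 2 at ZT 16 gave 18, library 3 at ZT 16 gave 17 and library 3 at ZT 4 gave 16.

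The ER stress response element, searched as CCAAT and CCACG with 9 bases between them on either strand, occurred in 37 of the 32851 windows (0.113%). It was present in 8 of the 23 ER genes that have a window. Over all genes with a window, it was in 7 of 1090 called higher (0.642%) and 0 of 1105 called lower, beside 16 of the 9269 tested (0.173%). These counts are not separate from the ER list. All 8 ER genes are among the 16, and Hspa5, Hsp90b1, Creld2, Syvn1, Dnajc3 and Canx are among the 7. Stretches of the 8 ER genes are shown because they carry this element at different distances from the start. Capitals mark it, in the reverse orientation in Creld2 and Calr and in both orientations in Hsp90b1.
Hspa5 (chr2:34771995-34772073, plus strand, GRCm38.p6): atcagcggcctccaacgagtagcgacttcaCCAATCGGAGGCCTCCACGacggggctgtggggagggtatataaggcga
Hsp90b1 (chr10:86705503-86705686, minus strand, GRCm38.p6): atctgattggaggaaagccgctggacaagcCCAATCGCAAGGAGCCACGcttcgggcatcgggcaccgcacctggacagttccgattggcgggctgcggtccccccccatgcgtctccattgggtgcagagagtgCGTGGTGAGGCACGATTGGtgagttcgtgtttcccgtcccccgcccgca
Creld2 (chr15:88819490-88819568, plus strand, GRCm38.p6): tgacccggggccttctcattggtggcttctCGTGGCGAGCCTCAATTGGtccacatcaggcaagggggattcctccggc
Syvn1 (chr19:6046502-6046575, plus strand, GRCm38.p6): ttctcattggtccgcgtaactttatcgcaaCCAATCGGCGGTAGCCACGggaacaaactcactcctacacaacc
Dnajc3 (chr14:118937797-118937875, plus strand, GRCm38.p6): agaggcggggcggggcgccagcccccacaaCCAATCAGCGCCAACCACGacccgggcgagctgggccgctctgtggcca
Canx (chr11:50325770-50325848, minus strand, GRCm38.p6): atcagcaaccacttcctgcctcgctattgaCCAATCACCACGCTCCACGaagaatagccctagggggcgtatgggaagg
Calr (chr8:84847045-84847123, minus strand, GRCm38.p6): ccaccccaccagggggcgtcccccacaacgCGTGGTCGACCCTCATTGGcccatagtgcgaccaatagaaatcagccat
Pdia6 (chr12:17266461-17266539, plus strand, GRCm38.p6): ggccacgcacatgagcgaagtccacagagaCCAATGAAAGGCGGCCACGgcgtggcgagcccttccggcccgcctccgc
The 8 genes did not move alike. Creld2, Syvn1 and Hspa5 rose by 3.32, 2.06 and 2.02 on the log2 scale, Hsp90b1 by 0.98 ± 0.15, Dnajc3 by 0.85 ± 0.13 and Canx by 0.29 ± 0.10 (adjusted p = 0.0398, a call lost without library 1 or 3 of either time), while Calr (0.36 ± 0.16, adjusted p = 0.102) and Pdia6 (0.17 ± 0.14, adjusted p = 0.446) were not called.

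**Figure D2:**
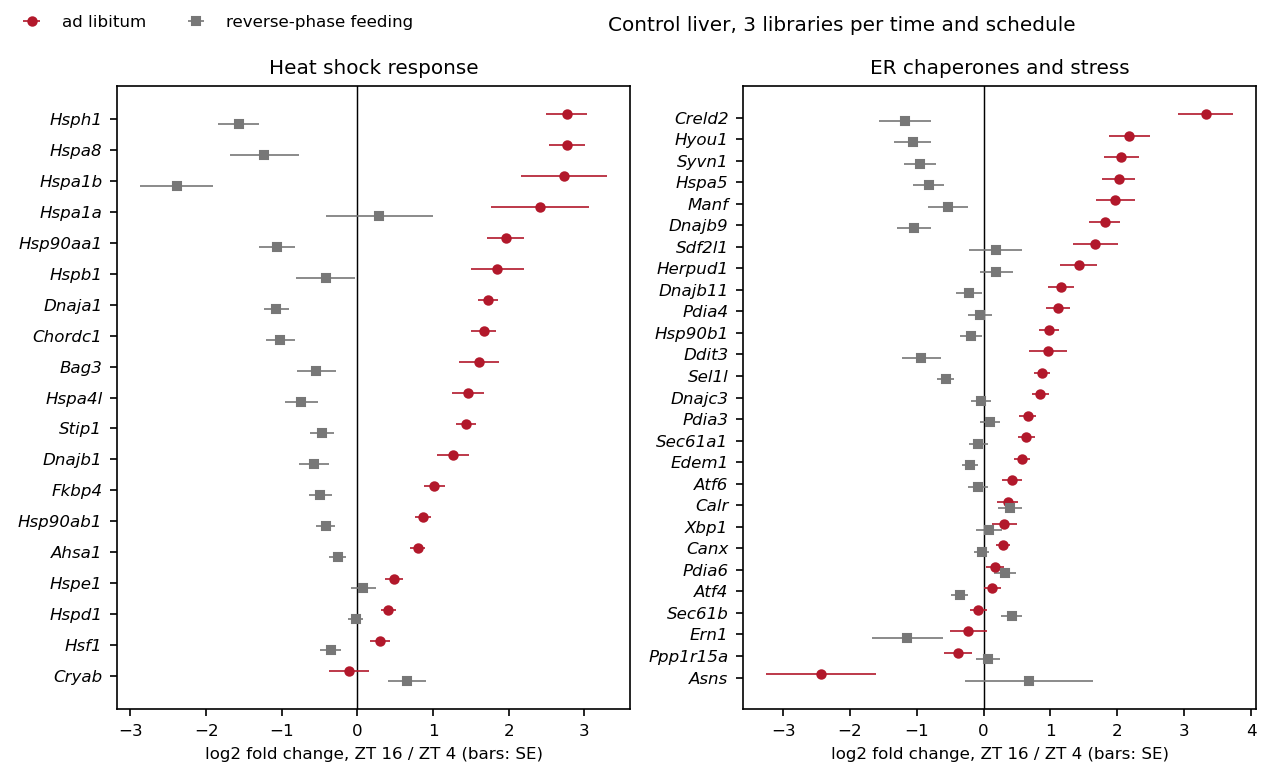
Log2 fold change of ZT 16 over ZT 4 with its SE for 19 heat shock genes (left) and 27 ER genes (right), ad libitum (red circles) and under reverse-phase feeding (grey squares), 3 libraries per time and schedule. Ad libitum, 17 heat shock and 19 ER genes were called higher, and under reverse-phase feeding none of either list was.

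Genes for making ribosomes rose while ribosomal protein genes did not. Of 30 ribosome biogenesis genes, 19 were called higher at ZT 16 and 1 lower, with a median log2 fold change of 0.73. Rrp12, a factor for export of ribosomal subunits, measured 4.66, 4.43 and 3.14 CPM at ZT 4 and 15.1, 17.8 and 13.4 CPM at ZT 16 (1.92 ± 0.18, adjusted p = 2.63e-08). Nolc1, a nucleolar phosphoprotein, measured 22.7, 22.3 and 22.9 CPM at ZT 4 and 60.5, 77.9 and 64.2 CPM at ZT 16 (1.57 ± 0.13, adjusted p = 2.52e-09). Ubtf, a factor for ribosomal RNA transcription, was the gene called lower (-0.40 ± 0.14, adjusted p = 0.0312), a call lost without library 2 or 3 at ZT 16 or library 3 at ZT 4. Of 77 cytosolic ribosomal protein genes, none was called higher and 1 lower, and their median was 0.02. The count of ribosome biogenesis genes called higher was 18 without library 2 at ZT 16, 19 without library 3 at ZT 16 and 20 without library 3 at ZT 4.

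Several genes that take up and store glucose were higher at ZT 16. Of 17 genes for glucose uptake, glycolysis and glycogen, 9 were called higher and none lower (median log2 fold change 0.41). Ppp1r3b (chr8:36438795-36451191, plus strand, mm9), which brings phosphatase to glycogen, was 177, 200 and 200 CPM at ZT 4 and 872, 597 and 595 CPM at ZT 16 (1.84 ± 0.22, adjusted p = 3.64e-06), and Gys2, liver glycogen synthase, rose by 1.03 ± 0.13 (adjusted p = 3.25e-06). Leaving out library 3 at ZT 4 left 5 genes called higher, and leaving out any other library left 6 or 7. Fasting-response genes included falls. Igfbp1, induced when insulin is low, dropped from 37.6, 53.3 and 45.3 CPM to 2.51, 7.97 and 8.07 CPM (-2.89 ± 0.72, adjusted p = 0.00732), and Trib3, an inhibitor of AKT, fell by 2.82 on the log2 scale (SE 0.37, adjusted p = 4.01e-06). In that list of 21 genes, 3 were called higher and 6 lower (4 lower without library 3 at ZT 4). Of all genes, 11.6% were called higher and 11.9% lower. Fkbp5, a glucocorticoid-induced cochaperone, rose from 36.0, 26.6 and 26.2 CPM to 184, 240 and 251 CPM (2.93 ± 0.50, adjusted p = 0.000415).

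The lists of lipid genes held calls both ways, beside 11.6% of all genes called higher and 11.9% lower. In lipogenesis and triglyceride synthesis 5 of 20 were called higher and 3 lower. The count called higher was 2 without library 3 at ZT 4, and 3 without library 1 at ZT 4 or library 1 or 2 at ZT 16. Thrsp, a lipogenic protein responsive to thyroid hormone and carbohydrate, was 79.1, 141 and 69.1 CPM at ZT 4 and 1886, 1761 and 1425 CPM at ZT 16 (4.14 ± 0.62, adjusted p = 0.000125). Elovl5, a fatty acid elongase, fell by 1.11 on the log2 scale (adjusted p = 0.00016). In cholesterol synthesis and uptake 7 of 25 were called higher and 1 lower, and the median of that list was -0.07. The count called higher was 2 without library 3 at ZT 4, 3 without library 1 at ZT 4 or library 3 at ZT 16, 4 without library 2 at ZT 4 or library 1 at ZT 16, and 5 without library 2 at ZT 16. Of 23 lipid droplet and lipoprotein genes, 3 were called higher (5 without library 2 at ZT 4) and 7 lower (5 without library 1 at ZT 16). Lpl, lipoprotein lipase, fell from 39.4, 92.3 and 53.1 CPM to 10.9, 11.4 and 19.3 CPM (-2.15 ± 0.31, adjusted p = 4.54e-05), and Mgll, the monoglyceride lipase, rose by 1.27 ± 0.15 (adjusted p = 6.13e-07). Of 26 genes for fatty acid oxidation and ketogenesis 2 were called higher and 2 lower, or 1 lower without library 1 or 3 of either time. Both counts lie below the shares of all genes.

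Bile acid and detoxification genes held some of the widest differences. Cyp7a1 (chr4:6192759-6202778, minus strand, mm9), which sets the pace of bile acid synthesis, was 73.0, 55.8 and 19.8 CPM at ZT 4 and 248, 305 and 317 CPM at ZT 16 (2.55 ± 0.49, adjusted p = 0.00102). Of 17 bile acid genes 2 were called higher and 5 lower, beside 11.6% and 11.9% of all genes. Their median log2 fold change was -0.08. The count called higher was 1 without library 2 or 3 at ZT 4 or library 1 at ZT 16. The count called lower was 4 without library 3 at ZT 4 or library 1 or 3 at ZT 16. Abcg8, a member of the sterol exporter pair, fell from 135, 119 and 155 CPM to 33.4, 55.3 and 40.8 CPM (-1.66 ± 0.20, adjusted p = 4.26e-06), and Abcb11, the bile salt export pump, fell by 1.03 on the log2 scale (adjusted p = 5.42e-07). Of 21 xenobiotic genes 7 were called higher and 1 lower, beside the same shares of all genes. Alas1, the first enzyme of heme synthesis, rose from 99.1, 137 and 53.4 CPM to 383, 1551 and 1190 CPM (3.43 ± 0.58, adjusted p = 0.000409), with library 1 at ZT 16 the lowest of its group. Por, the electron donor to cytochromes P450, rose by 1.62 ± 0.20 (adjusted p = 4.26e-06), and Cyp2b10 by 3.12 ± 0.59 (adjusted p = 0.000936), or 4.15 without library 3 at ZT 4. Cyp2a5 (2.12 ± 0.36, adjusted p = 0.000387) belongs to a family of close copies, so its counts are uncertain, and rose by 2.81 without that library.

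Amino acid enzymes went both ways, beside 11.6% of all genes called higher and 11.9% lower. Of 18 urea cycle and amino acid genes, 6 were called higher (3 without library 2 at ZT 4) and 3 lower. Asl, argininosuccinate lyase of the urea cycle, was 207, 179 and 260 CPM at ZT 4 and 601, 661 and 492 CPM at ZT 16 (1.44 ± 0.15, adjusted p = 8.4e-08). Agxt, an aminotransferase of glyoxylate metabolism, was 301, 347 and 478 CPM at ZT 4 and 143, 182 and 130 CPM at ZT 16 (-1.31 ± 0.13, adjusted p = 7.21e-08). Autophagy and lysosome genes had 2 of 22 called higher and 7 lower, beside the same shares of all genes. The count called lower was 5 without library 1 at ZT 16. Gabarapl1, which decorates autophagosomes, fell from 505, 402 and 512 CPM to 113, 165 and 141 CPM (-1.76 ± 0.16, adjusted p = 1.17e-08), and Ulk1, the kinase that starts autophagy, fell by 1.12 on the log2 scale (adjusted p = 0.000175).

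Among called genes whose log2 CPM averaged 1 or more, the widest fall was that of Egr1, an immediate early transcription factor. It was 68.2, 37.7 and 47.5 CPM at ZT 4 and 1.18, 1.19 and 1.11 CPM at ZT 16 (-5.44 ± 0.99, adjusted p = 0.000706). Its high level was limited to ZT 4 among the 8 times by mean, with 12.1 ± 5.69 CPM (SD, n = 3) at ZT 7. Junb, of the same class, fell by 2.20 on the log2 scale (adjusted p = 0.000211). In that list 1 of 16 was called higher (none without library 1 or 2 of either time) and 4 lower. The shares of all genes were 11.6% and 11.9%. The widest rise by the same limit on level was Usp2, a ubiquitin protease under clock control, at 2.19, 1.22 and 2.87 CPM at ZT 4 and 52.9, 71.6 and 51.1 CPM at ZT 16 (4.77 ± 0.36, adjusted p = 2.07e-08). Noct, a rhythmic nocturnin, rose by 4.46 ± 0.41 (adjusted p = 2.99e-07).

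Genes with the smallest p outside the clock were enzymes and transporters with tight libraries. Srm, spermidine synthase, was 16.8, 17.4 and 15.2 CPM at ZT 4 and 71.8, 76.2 and 68.0 CPM at ZT 16 (2.13 ± 0.11, adjusted p = 3.11e-13). Camk1d, a calcium-dependent kinase, was 77.4, 74.1 and 94.1 CPM at ZT 4 and 11.1, 13.6 and 13.1 CPM at ZT 16 (-2.70 ± 0.15, adjusted p = 4.82e-12). Crot, which moves peroxisomal fatty acids onto carnitine, was 1000, 855 and 942 CPM at ZT 4 and 216, 238 and 229 CPM at ZT 16 (-2.03 ± 0.13, adjusted p = 4.72e-11). Slc8b1, a mitochondrial sodium and calcium exchanger, fell by 2.0 and Hsd3b7, an enzyme of bile acid synthesis, by 1.41 on the log2 scale. For each of these genes the libraries of the 2 times did not overlap, beside 33.5% of all genes tested. They were picked by p in these same libraries, so the lack of overlap is no separate evidence.

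**Figure D3:**
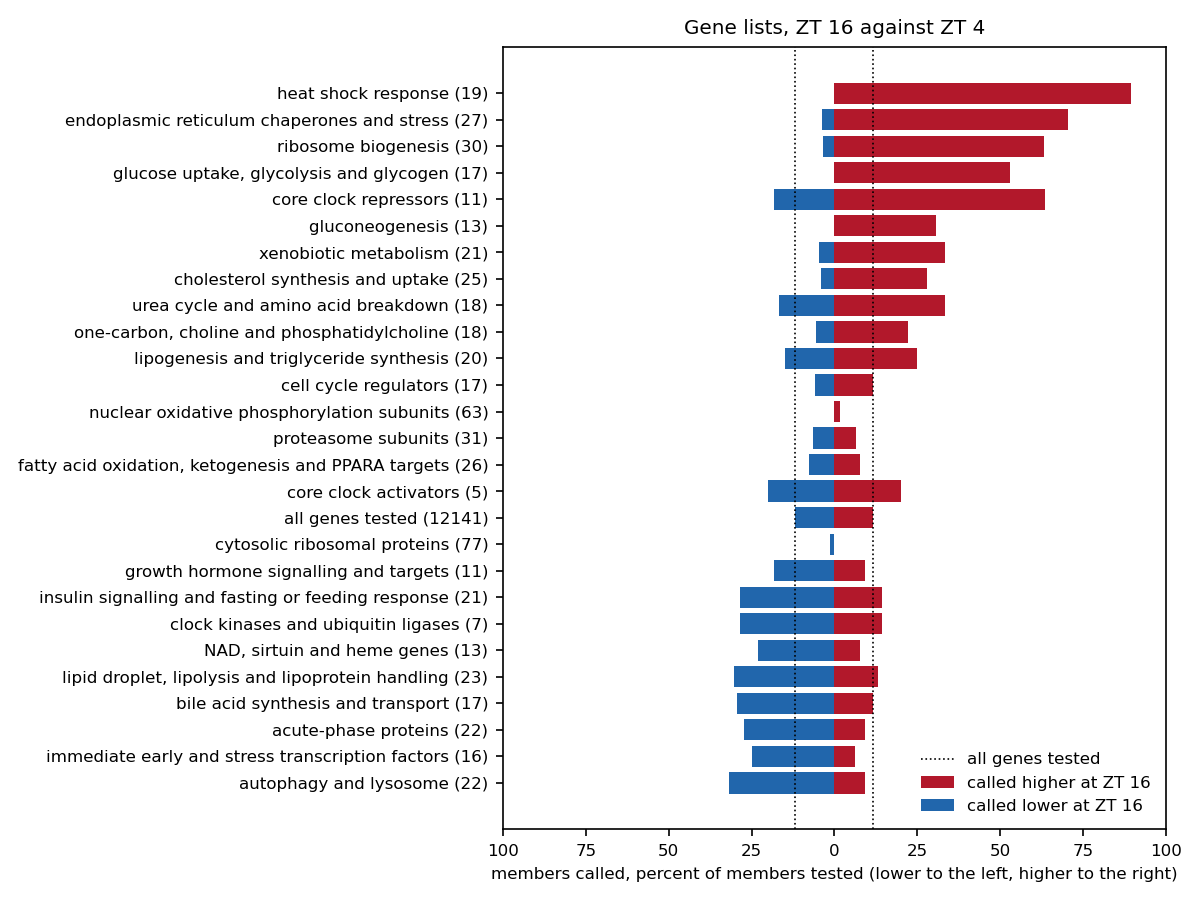
Percent of the tested members called higher (red, to the right) or lower (blue, to the left) at ZT 16, for gene lists with at least 5 members tested, marker lists aside, with the number tested in brackets; dotted lines mark the shares of all genes, 11.6% and 11.9%. The bars of heat shock genes, ER genes, core clock repressors, ribosome biogenesis and glucose genes reach furthest to the right, and that of autophagy genes furthest to the left.

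Some markers of liver cells were called, beside 11.6% of all genes called higher and 11.9% lower. Of 13 hepatocyte markers 2 were called higher (3 without library 2 at ZT 16 or library 3 at ZT 4) and 2 lower. Of 21 endothelial markers 2 were called higher and none lower, of 16 Kupffer cell markers 1 higher, and of 12 stellate cell markers none. Without library 2 at ZT 16, 5 endothelial and 2 stellate cell markers were called higher. Without library 2 at ZT 4 only 1 endothelial marker was called, without library 3 of either time none was, and without library 1 at ZT 4 1 stellate cell marker was called higher. Over their alternatives, the endothelial marker Flt1 had an adjusted p of up to 0.249 and Gpr182 of up to 0.0865. The summed levels overlapped between the times, at 257 to 291 CPM and 224 to 353 CPM for the endothelial list and 491 to 607 CPM and 389 to 575 CPM for the Kupffer cell list. In bulk liver, fewer cells of a type and less RNA per cell cannot be told apart. Cholangiocyte markers summed to 73.5 to 115 CPM at ZT 4 and 53.9 to 59.8 CPM at ZT 16, with 1 of 4 tested markers (Spp1) called lower. Neutrophil and monocyte markers summed to 10.8 to 12.7 CPM and 5.60 to 7.53 CPM, with 1 of 3 (Plac8) called lower and Mpo at 0. Lymphocyte markers summed to 3.82 to 6.12 CPM and 5.43 to 7.38 CPM, with the 1 tested not called. Pancreatic acinar markers summed to 21.1 to 24.9 CPM and 9.02 to 14.8 CPM, with 9 of 13 at 0 in all 6 libraries, among them Prss2, Cpa1 and Pnlip, and 1 of 2 tested (Cela1) called lower. Erythroid markers summed to 200 to 1382 CPM at ZT 4 and 178 to 268 CPM at ZT 16, with 1 of 5 (Alas2) called lower, and no adipocyte marker passed the filter. The erythroid median log2 fold change was -1.96, or 0.38 without library 3 at ZT 4, and 2 of these markers were called lower without library 1 at ZT 4 and 4 without library 2 at ZT 4. The calls of Spp1, Cela1 and Alas2 were each lost without 1 library or another, with an adjusted p of up to 0.273, 0.0886 and 0.0713. The part of these differences in the gene groups above was not tested.

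The libraries taken 3 h away gave a measure of the same day and night difference that shares no library with ZT 4 or ZT 16. The mean of ZT 13 and ZT 19 was compared with the mean of ZT 1 and ZT 7, and 1432 of 12040 genes were called (11.9%), 718 higher in the dark (5.96%) and 714 lower (5.93%). Of the 2831 genes called between ZT 16 and ZT 4 and tested here, 1074 were called (37.9% of that list and 75.0% of the 1432), and all 1074 moved in the same direction. Per2 (1.88, adjusted p = 1.48e-05), Srm (0.81, adjusted p = 1.97e-07) and Camk1d (-1.59, adjusted p = 2.41e-09) were among them. Heat shock genes gave 16 of 19 called higher and ER genes 15 of 27. Some genes called between ZT 16 and ZT 4 were not called there. Hspa8 changed by 0.56 on the log2 scale (adjusted p = 0.0602), with 752 ± 200 CPM (SD, n = 3) at ZT 13 and 410 ± 32.4 CPM at ZT 19. For Egr1 the change was -1.01 (adjusted p = 0.426) and for Npas2 -1.69 (adjusted p = 0.164), and Npas2 was highest at ZT 1, at 16.8 ± 3.12 CPM (SD, n = 3).

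**Figure D4:**
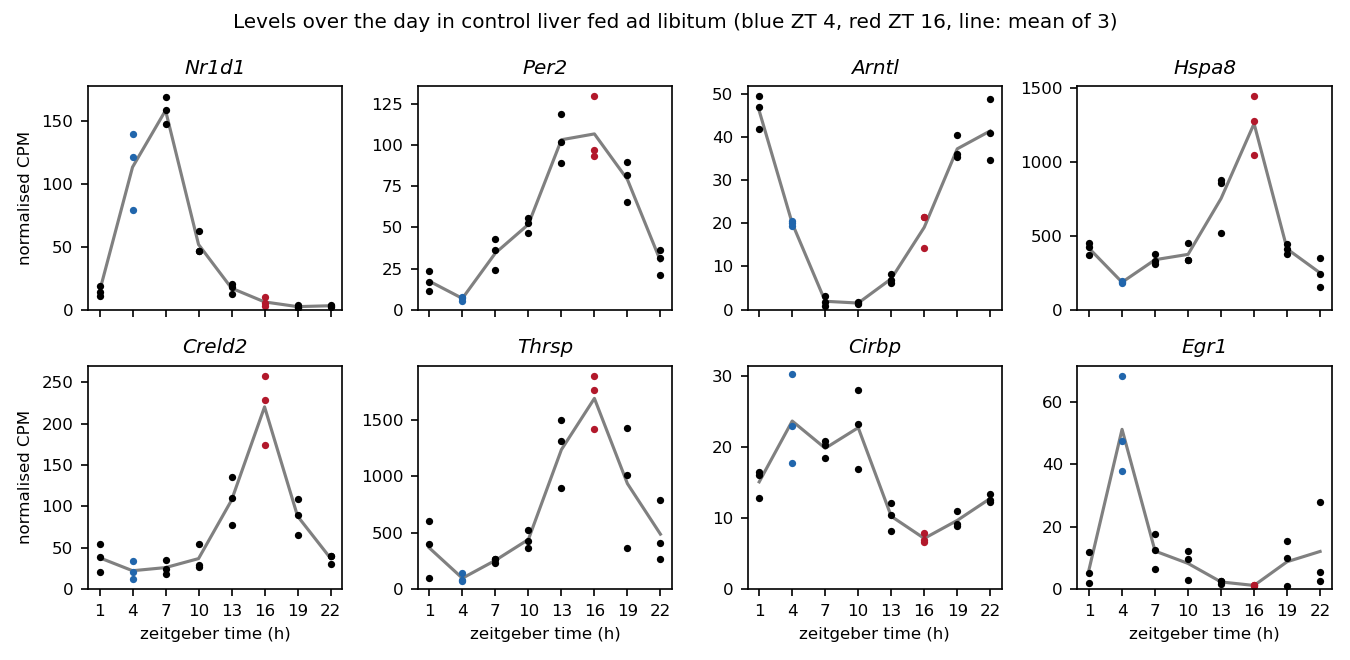
Normalised CPM of 8 genes against zeitgeber time in hours in the 24 control libraries fed ad libitum, with points for libraries, a line for the mean of 3, ZT 4 in blue and ZT 16 in red. Arntl has near-equal levels at ZT 4 and ZT 16 on opposite slopes, while Hspa8 and Creld2 peak at ZT 16 and Egr1 at ZT 4.

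In livers labelled REV-ERB a/b double knockout, most of the difference was of the same sign. Between ZT 16 and ZT 4, 2652 of 12571 genes were called in those livers (21.1%), 1360 higher (10.8%) and 1292 lower (10.3%). Of the 2848 control calls 1778 were called there too (62.4%, and 67.7% of the 2626 calls of those livers among genes tested in both), 1777 of them in the same direction. The gene-level count of Nr1d1 in those livers was 149 ± 23 CPM (SD, n = 3) at ZT 4 and 39.6 ± 9.15 CPM at ZT 16, and that of Nr1d2 100 ± 11.2 and 58.1 ± 1.36 CPM. Neither was below the control, and a count over a whole transcript cannot show the loss of some exons, so it does not check the label. The difference between genotypes was tested itself, and 23 genes were called (0.183%), 8 with a higher (0.0636%) and 15 with a lower value (0.119%) in control. They included 5 clock genes.

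Npas2 was 15.2 ± 2.96 CPM (SD, n = 3) at ZT 4 and 21.2 ± 3.03 CPM at ZT 16 in the knockout-labelled livers, so the fall in control was not seen there, and the fitted difference was -4.40 ± 0.73 on the log2 scale (adjusted p = 0.00238). Cry1 rose in both, by 2.72 in control and 1.15 in the knockout-labelled livers (difference 1.57 ± 0.28, adjusted p = 0.00787). Nr1d1 fell in both, by 4.23 and by 1.92 on the log2 scale (adjusted p of the difference = 0.0105), and Per3 rose by 2.14 and 0.40 (adjusted p of the difference = 0.0289). Outside the clock, Cbs, a cystathionine synthase, fell by 1.0 in control and 0.07 in the knockout-labelled livers (difference -0.94 ± 0.17, adjusted p = 0.00787). Nampt, which makes a precursor of NAD, rose by 1.68 and 0.59 (difference 1.09 ± 0.22, adjusted p = 0.0281). Ncaph2, Sco2 and Tymp overlap on chromosome 15, so these 3 of the 23 are not independent, and the counts of Hmga1 are uncertain because its family has near-identical copies. Without library 3 at ZT 16 or library 3 at ZT 4 of the control, 3 genes were called, 2 with a higher and 1 with a lower value in control, and Npas2 was among them each time, while Cry1, Nr1d1, Per3, Cbs and Nampt lost the call.

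Reverse-phase feeding gives food in the phase when mice normally rest. Under it the sign of the difference was reversed for most genes called in both. In those control livers 2229 of 13157 genes were called between ZT 16 and ZT 4 (16.9%), 996 higher (7.57%) and 1233 lower (9.37%). Of the 2848 genes called ad libitum 996 were called there (35.0%, and 45.4% of the 2195 reverse-fed calls among genes tested in both), 927 in the opposite and 69 in the same direction. Of the 927, 547 were higher at ZT 16 ad libitum and lower under reverse-phase feeding, and 380 the other way. The difference between schedules was called for 3496 of 13157 genes (26.6%), 1842 with a higher (14%) and 1654 with a lower value (12.6%) ad libitum. The schedules were counted in separate tables, and what else differs between them cannot be told apart from the schedule, except for a constant offset per gene, which cancels.

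Per2 fell from 66.2 ± 9.71 CPM (SD, n = 3) at ZT 4 to 7.05 ± 1.58 CPM at ZT 16 under reverse-phase feeding (difference between schedules 7.22 ± 0.44 on the log2 scale, adjusted p = 2.67e-14). Nr1d1 rose there from 18 ± 3.14 to 67.8 ± 21.1 CPM (difference -6.15 ± 0.50, adjusted p = 1.35e-11). Of the 19 clock genes 15 differed between the schedules. Clock, Rora, Bhlhe41 and Dbp did not pass, and Dbp fell under both, by 1.02 on the log2 scale ad libitum and 1.99 with feeding reversed (adjusted p of the difference = 0.219). Of 19 heat shock genes, none was called higher under reverse-phase feeding and 10 lower, and 16 differed between the schedules. Of the 27 ER genes 17 differed, and of 30 ribosome biogenesis genes 21. Some genes kept their sign. Cdkn1a, a cell cycle inhibitor, was 5.25, 4.74 and 8.20 CPM at ZT 4 and 34.1, 32.2 and 35.4 CPM at ZT 16 ad libitum, and rose from 2.67 ± 0.449 to 52.7 ± 38.4 CPM (SD, n = 3) under reverse-phase feeding (difference -1.84 ± 0.87, adjusted p = 0.118). Acute-phase proteins are secreted by hepatocytes in inflammation. Of 22 genes in their list 2 were called higher and 6 lower ad libitum, beside 11.6% and 11.9% of all genes. Under reverse-phase feeding 21 of the 22 were called higher, beside 7.57% of all genes. Ad libitum, 1 was higher without library 1 or 3 at ZT 4 or library 2 or 3 at ZT 16. The count called lower was 4 without library 2 or 3 of either time, and 7 without library 1 at ZT 4. The fibrinogen genes Fga, Fgb and Fgg fell by 0.73, 0.65 and 0.83 ad libitum and rose by 1.67, 1.57 and 1.65 under reverse-phase feeding on the log2 scale.

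**Figure D5:**
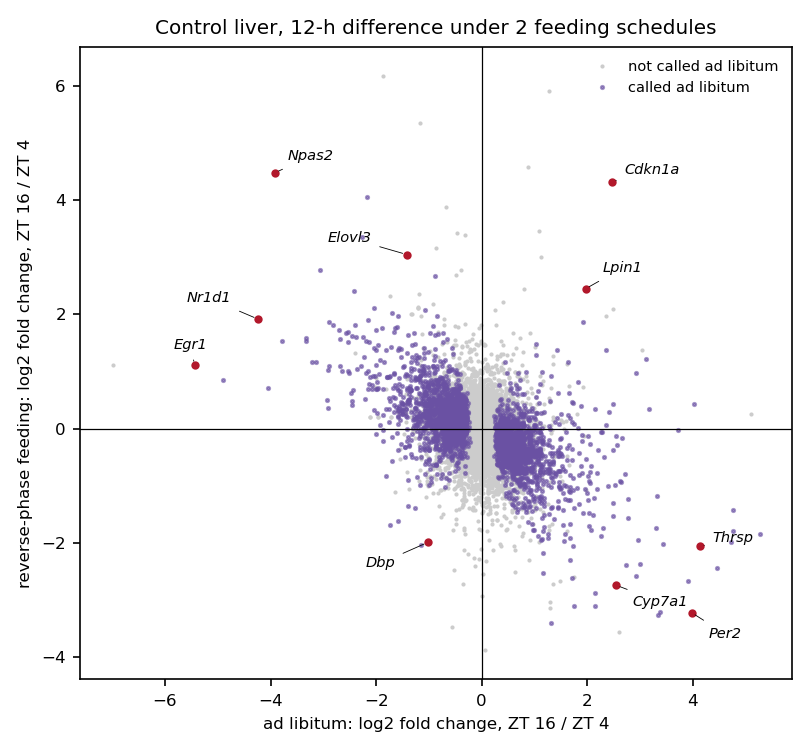
Log2 fold change of ZT 16 over ZT 4 in control liver ad libitum (horizontal) and under reverse-phase feeding (vertical) for 12141 genes; purple genes were called ad libitum, and red points are named genes. Most called genes lie in the upper left and lower right, where the signs are opposite, and Cdkn1a, Lpin1 and Dbp lie where they are the same.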

How the data were processed

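Total liver RNA was sequenced from TruSeq libraries, per the labels' protocols. Per the submitters' processing notes, the tools were STAR and HOMER and the build mm9, while versions and the strand used for counting were not stated. The authors deposited expected counts per RefSeq transcript, in steps of 0.5, of which 29.5% of values were not whole, and these were rounded. Each of 24421 gene symbols was represented by the transcript with the most counts.

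Genes were filtered with filterByExpr and scaled by TMM. edgeR 4.0.16 (R 4.3.3) fitted robust quasi-likelihood models with 1 mean per group and no block, and p-values were adjusted by Benjamini-Hochberg over all genes tested. The ZT 16 against ZT 4 contrast was fitted on 24 control libraries, the genotype and schedule differences on 48 each, and the neighbouring times on 18. Totals of 6333084 to 7473396 counts limit low genes, and for those with few counts an exact 95% interval of the count ratio, which covers counting error only, is given. Simulated data had the same depths, 50 changed genes per fold and the same spread for every gene. In them 20% of 1.5-fold, 68% of 2-fold, 100% of 3-fold and 98% of 4-fold changes were recovered for ZT 16 against ZT 4. For the genotype difference 28% of 2-fold changes were recovered. These runs held 12000 and 12364 genes. Real genes differ in spread, so these shares do not hold for genes whose libraries vary more.

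The members and gene lists were chosen with earlier results of these data known. Genes named are all clock genes, up to 3 called genes of each list with the widest change, the 10 widest rises and falls at a mean log2 CPM of at least 1, the 5 smallest p outside the clock, for each difference the clock genes and the 5 smallest p, and called markers. Some genes that this rule picks are not reported here, though they stay in every fit and count. Other list members, and the genes labelled in the plots, were named after their values were seen. Alternatives were DESeq2 1.42.0, other scaling, filters, transcripts, library sets, a replicate block and leaving out each library. Endothelial and Kupffer cell libraries of the series were not used here.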

Additional observations from a re-analysis of the deposited data

Results flagged for a closer look

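The results here are those whose difference between ZT 16 and ZT 4 was not the same in another group, by a test of that difference in edgeR. Between control and knockout-labelled livers 23 genes passed, and between feeding schedules 3496. Control minus knockout, on the log2 scale, the clock genes reported here were Npas2 (-4.40), Per3 (1.74), Cry1 (1.57) and Nr1d1 (-2.32). Among the others with the smallest p were Cbs (-0.94), Ncaph2 (-0.91), Nampt (1.09) and Hmga1 (-1.30).

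Ad libitum minus reverse-phase feeding, the differences were -1.53 for the activator Arntl and -8.46 for its partner Npas2. Among repressors they were 2.87 for Per1, 7.22 for Per2, 5.25 for Per3, 3.53 for Cry1, 0.73 for Cry2, -6.15 for Nr1d1, -1.28 for Nr1d2, 2.39 for Bhlhe40, 6.75 for Ciart and -1.12 for Nfil3. For the output factors Tef and Hlf they were 2.14 and 1.99. Outside the clock, Crot (-2.95) and Tcp11l2 (-4.82) had lower values ad libitum, and Srm (3.35), Rcan1 (4.14) and Nampt (2.92) higher.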

How the results depend on the processing

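No gene named as called changed direction under any alternative run, while Arntl (-0.16 to 0.10), Clock (-0.15 to 0.21), Nfil3 (-0.09 to 0.39) and Rora (-0.14 to 0.26), which were not called, took both signs on the log2 scale. With the 6 libraries alone 1832 genes were called in place of 2848, and leaving out 1 library gave 2169 (without ZT 4 library 3) to 2556. The genotype difference gave 45 genes by DESeq2, 15 with no filter on low counts, and 3 to 18 with 1 library left out. The difference between schedules ranged from 2899 to 3457 and the neighbouring-time comparison from 979 to 1353 with 1 library left out. The other alternatives kept the counts of the 4 comparisons within 1.5 times. Of 136 single-gene results, 94 kept their side of the threshold throughout, and 42 lost it in at least 1 of their alternatives (176 of 2012 in all). Libraries with the same number did not deviate together (r from -0.303 to 0.048), so the replicate block rests on a number only, and with it 2821, 21, 3508 and 1496 genes were called in the 4 comparisons. Counts of list members without single libraries were added after seeing the data. Depth limits genes with few counts, such as Npas2 at ZT 16. The cause of the differences between settings was not tested, except that leaving out a library or fitting 6 uses fewer samples.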

Other observations

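Some differences lay outside the groups described. Cdkn1a and Wee1, which restrain the cell cycle, were both higher at ZT 16. Wee1 was 5.10, 2.60 and 4.51 CPM at ZT 4 and 19.8, 15.1 and 19.6 CPM at ZT 16 (log2 fold change 2.15 ± 0.23, edgeR adjusted p = 2.01e-07), without overlap. In the list of 17 cell cycle regulators 2 were called higher and 1 lower, beside 11.6% of all genes called higher and 11.9% lower. Stat5b, which carries the growth hormone signal, was lower, at 71.0, 86.2 and 71.3 CPM at ZT 4 and 35.9, 25.1 and 44.8 CPM at ZT 16 (-1.11 ± 0.14, adjusted p = 1.45e-06). Of 11 growth hormone genes 1 was called higher and 2 lower, beside the same shares of all genes. Only 1 was called lower without library 1 at ZT 4. None was called higher without library 1 or 2 at ZT 16 or library 3 at ZT 4.

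Few genes of respiration and protein breakdown were called, beside 11.6% of all genes higher and 11.9% lower. Of 63 nuclear genes for oxidative phosphorylation 1 was called higher and none lower (median log2 fold change 0.08), and of 31 proteasome genes 2 were called higher and 2 lower. With 1 library left out, 0 to 4 oxidative phosphorylation genes were called higher (4 without library 3 at ZT 16) and 0 to 2 lower, and 0 to 3 proteasome genes higher and 0 to 5 lower (5 without library 2 at ZT 16). Of 18 one-carbon and choline genes 4 were called higher (2 without library 2 or 3 at ZT 4 or library 1 at ZT 16) and 1 lower, with Ahcy, which clears S-adenosylhomocysteine, at 421, 379 and 486 CPM at ZT 4 and 671, 904 and 624 CPM at ZT 16 (0.77 ± 0.14, adjusted p = 0.000127). Of 13 NAD, sirtuin and heme genes 1 was called higher and 3 lower (1 lower without library 1 or 3 of either time). Alas1, which rose, was counted among the xenobiotic genes and not in this list. Of 13 gluconeogenesis genes 4 were called higher and none lower, led by Tat, a glucocorticoid-responsive aminotransferase (1.64 ± 0.21, adjusted p = 9.99e-06). Saa4, a serum amyloid made constitutively, rose by 1.43 ± 0.15 (adjusted p = 2.31e-07).

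In the low-count genes among the widest changes, counts were compared directly. E030018B13Rik was counted 1, 1 and 2 times at ZT 4 and 57, 36 and 16 times at ZT 16, a ratio of 28.8 (95% counting interval 10.9 to 108). Bhlha15, a transcription factor of secretory cells, had 4, 1 and 1 counts at ZT 4 and 38, 20 and 31 at ZT 16, a ratio of 15.7 (6.93 to 43.9). Rfx4 had 46, 32 and 35 counts at ZT 4 and 1, 6 and 3 at ZT 16, a ratio of ZT 4 to ZT 16 of 10.7 (5.60 to 22.9).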
